A study of Homo sapiens with 66 samples.

Results

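The genes described here are 9 genes of the azurophil granule and its cargo, MPO, ELANE, AZU1, PRTN3, CTSG, LYZ, PRSS57, CST7 and SRGN. They were taken by symbol from the 57992 gene identifiers of the deposited counts, and each symbol matched 1 identifier. RNA was sequenced from 11 acute myeloid leukemia (AML) cell lines, F36P, HL60, KASUMI1, MOLM13, MONOMAC6, MV411, NB4, NOMO1, OCIAML2, OCIAML3 and THP1. Each line was left untreated or received etoposide, a topoisomerase II poison, at the IC50 of that line for 24 h, so the concentration differs between lines. Whether the untreated cells of the sequenced libraries received the solvent is not stated. Serum content and supplements differ between lines too, with GM-CSF added for F36P and insulin among the supplements of MONOMAC6. Every group has 3 libraries, each from 3 pooled wells of a culture of 1 established line, which makes 66 libraries. The study's methods call replicates biological unless otherwise specified, but the sources do not say of the sequenced libraries whether they came from separate cultures, and p-values measure the spread between these libraries.

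Azurophil granules are the first granules that a neutrophil precursor makes, and they are filled during the promyelocyte stage. MPO makes hypochlorous acid for killing of microbes, while ELANE, PRTN3, CTSG and PRSS57 are serine proteases that CTSC activates inside the cell. AZU1 belongs to the same protein family without protease activity, LYZ cuts bacterial cell walls, CST7 inhibits cysteine cathepsins such as CTSC, and SRGN is the proteoglycan that holds basic granule proteins in place. LYZ and SRGN are also made by monocytes.

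Reads on genes numbered 17997404 to 24101670 per library, with a median of 20241014. A gene with 0 reads in the 3 libraries of a group may still have had about 3 reads, for counting error only. In the untreated groups that is 0.0479 to 0.0520 CPM (reads of a gene scaled to a common library total), and in the etoposide groups 0.0426 to 0.0528 CPM. CDKN1A, the cell cycle inhibitor that DNA damage induces and the check of the treatment, was called higher after etoposide in 10 of 10 lines other than OCIAML2, with log2 fold changes of 1.86 to 5.46. In OCIAML2, whose treated libraries the study left out for the quality of their raw reads, CDKN1A was 44.8 to 47.9 CPM untreated and 72.9 to 80.2 CPM in the libraries labelled etoposide. That line is therefore given apart. The 6 erythroid markers summed to 6413 CPM in untreated F36P and to between 9.53 and 27.7 CPM in the other lines. Markers of other cell types were not all near 0, with EPCAM at 82.8 CPM in untreated KASUMI1 and CD3D at 159 CPM in untreated NOMO1.

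Of the 9 genes, 4 sit in a stretch of chromosome 19 (GRCh38). PRSS57 lies at chr19:685546-695498 on the minus strand, AZU1 at chr19:825097-832018, PRTN3 at chr19:840999-848175 and ELANE at chr19:851014-856247, the latter 3 on the plus strand. CTSG lies at chr14:24573518-24576250 on the minus strand, between CMA1 and the granzyme genes GZMH and GZMB. MPO lies at chr17:58269855-58280935, LYZ at chr12:69348381-69354234, CST7 at chr20:24949269-24959928 and SRGN at chr10:69088103-69104805. Reads were counted on whole genes, so exons were not told apart.

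Promoter sequences were matched for AZU1, PRTN3, CTSG and PRSS57, and not for MPO, ELANE, LYZ, CST7 and SRGN. The 150 bases before the start are shown for the matched genes as a description. They are RefSeq promoters of GRCh38.p14, written 5′ to 3′ on the strand of the gene, and capitals mark 5 short motifs searched on both strands, chosen after the values were seen: GAGGAA (bound by PU.1), TGTGGT (RUNX factors), TTGCNNAA (C/EBP factors), AACGG (MYB) and TATAA (the TATA box). The windows are chr19:827687-827836 for AZU1, chr19:840849-840998 for PRTN3, chr14:24576251-24576400 for CTSG and chr19:695453-695602 for PRSS57. The AZU1 window lies inside the gene span given above and the PRSS57 window overlaps its end, since RefSeq and gencode place the starts differently.
AZU1: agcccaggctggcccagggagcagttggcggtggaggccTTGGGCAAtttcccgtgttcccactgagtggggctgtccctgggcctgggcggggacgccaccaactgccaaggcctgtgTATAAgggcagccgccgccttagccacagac
PRTN3: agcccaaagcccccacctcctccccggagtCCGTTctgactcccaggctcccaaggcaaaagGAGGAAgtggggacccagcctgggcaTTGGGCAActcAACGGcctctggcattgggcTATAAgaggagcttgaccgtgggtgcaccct
CTSG: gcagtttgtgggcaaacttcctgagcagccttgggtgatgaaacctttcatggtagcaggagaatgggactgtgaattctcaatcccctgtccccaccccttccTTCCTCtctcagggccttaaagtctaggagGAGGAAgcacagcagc
PRSS57: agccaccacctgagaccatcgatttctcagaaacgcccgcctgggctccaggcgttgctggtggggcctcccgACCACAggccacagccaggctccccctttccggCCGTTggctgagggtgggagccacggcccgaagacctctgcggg

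AZU1 and PRTN3 held the same 8 letters, TTGGGCAA, at base -111 and base -62 from the start, and both held TATAA at base -31. PRTN3 also held GAGGAA at -88 and the MYB letters at -120 and -51. CTSG held GAGGAA at -46 and -16, and PRSS57 the RUNX letters at -77 and the MYB letters at -44. Such short words are common: of 35116 promoters searched over 250 bases before the start, 23.6% held GAGGAA, 18.9% TATAA, 16.5% AACGG, 11% TGTGGT and 9.05% TTGCNNAA. A match is a description of the letters and no evidence of binding.

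The basal levels answer how much granule cargo RNA each untreated line held. They are given as CPM normalized over the 33 untreated libraries, as mean ± SD (n = 3), and neighbours in the order were compared in edgeR (quasi-likelihood, p-values adjusted after Benjamini and Hochberg). No 2 genes had the same order of lines, and the highest line was KASUMI1 for 3 genes, MONOMAC6 for 2, and NB4, MOLM13, THP1 and OCIAML2 for 1 each. Of the 90 neighbouring pairs of lines, 68 differed at an FDR below 0.05. Over all 55 pairs of lines, neighbours or not, and all genes, 66.8% of comparisons did so. Neighbours are the closest lines in an order taken from the same values, so these shares are not like for like. In bulk RNA, fewer cells that make a gene and less RNA per cell cannot be told apart.

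**Figure D1:**
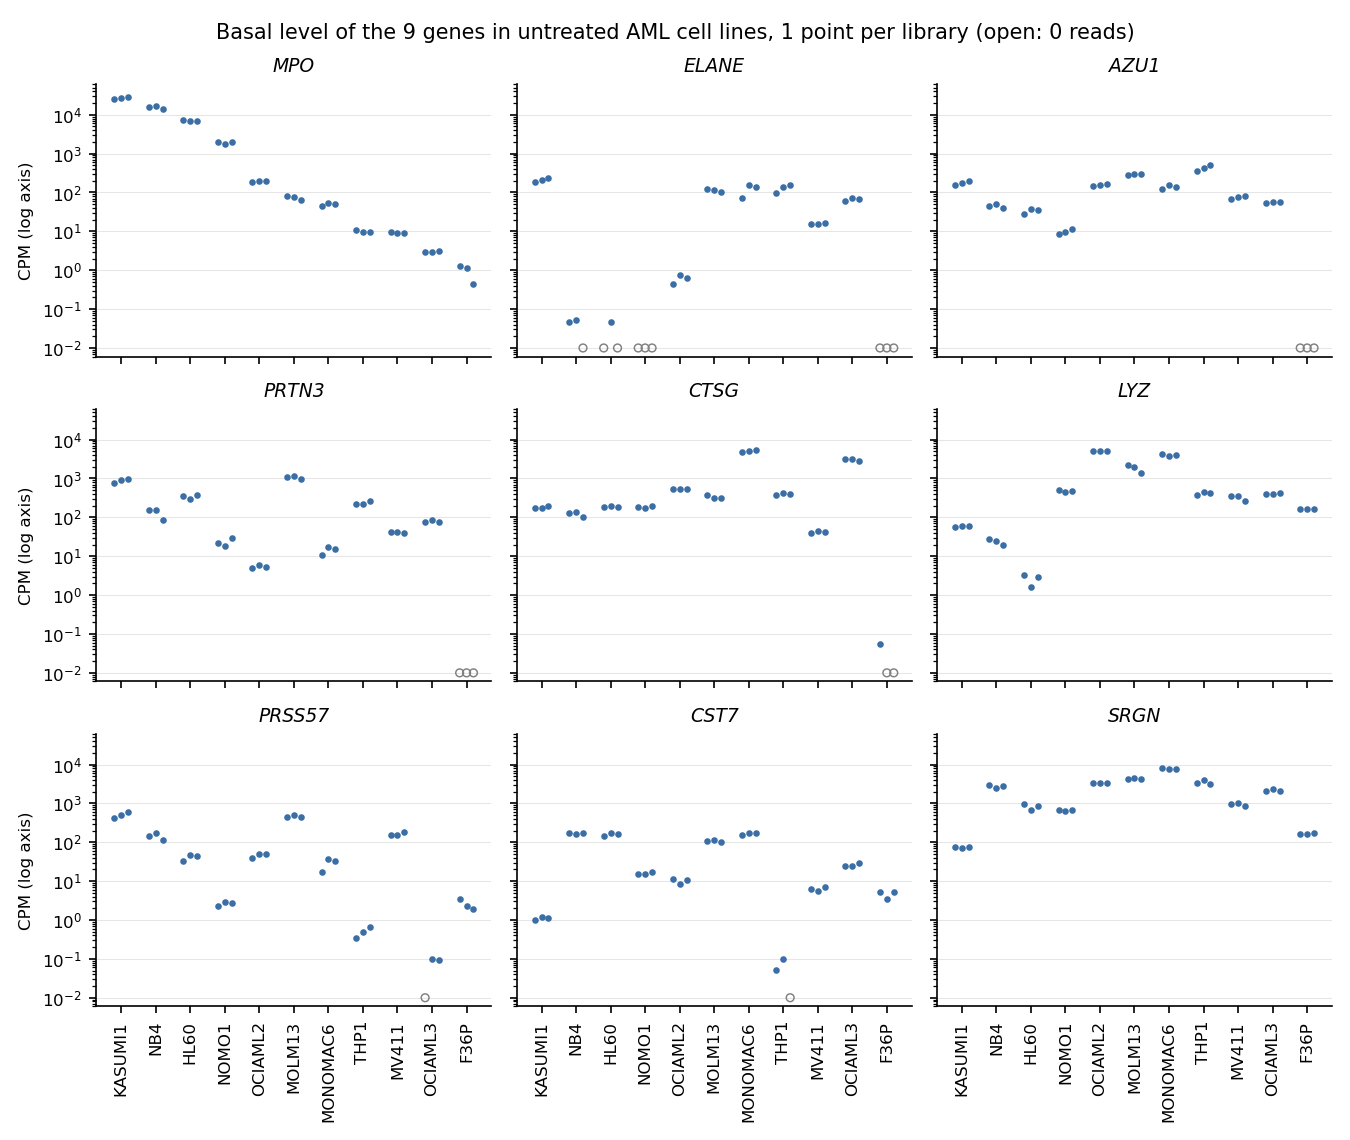
CPM of each gene (log axis) in the 33 untreated libraries, by cell line in the order of the MPO level, 1 point per library and an open point for 0 reads. MPO runs from 27465 CPM in KASUMI1 to 0.966 CPM in F36P, LYZ is lowest in HL60 and SRGN is lowest in KASUMI1.

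MPO, LYZ, PRSS57 and SRGN were above the 3-read limit in every line, and of these MPO had the widest range, 28435-fold between KASUMI1 and F36P. It was highest in KASUMI1 at 27465 ± 1899 CPM, then 15519 ± 1404 CPM in NB4, 6965 ± 165 CPM in HL60 and 1882 ± 138 CPM in NOMO1. The next lines had 191 ± 3.88 CPM in OCIAML2, 73.5 ± 8.98 CPM in MOLM13 and 50.2 ± 3.72 CPM in MONOMAC6. MPO was near the bottom of its range in THP1 (9.93 ± 0.823 CPM), MV411 (9.40 ± 0.284 CPM), OCIAML3 (3.03 ± 0.162 CPM) and F36P (0.966 ± 0.449 CPM). THP1 and MV411 were the only neighbours that did not differ (adjusted p = 0.562). Per kilobase of exon MPO was the most abundant of the 9 genes in KASUMI1 (6204 CPM per kb), NB4 (3505 CPM per kb) and HL60 (1573 CPM per kb).

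ELANE, neutrophil elastase, did not follow MPO. It was highest in KASUMI1 at 212 ± 27.6 CPM, and was 132 ± 29.9 CPM in THP1, 122 ± 42.6 CPM in MONOMAC6 and 114 ± 7.66 CPM in MOLM13. The last 3 did not differ from their neighbours among themselves (adjusted p = 0.625 and 0.593). OCIAML3 had 65.6 ± 5.55 CPM, MV411 15.8 ± 0.318 CPM and OCIAML2 0.608 ± 0.170 CPM. In 4 lines ELANE was at or below the 3-read limit, with 2 reads in the NB4 libraries together, 1 in HL60 and 0 in F36P and NOMO1. NB4, HL60 and NOMO1, which had nearly no ELANE reads, were 3 of the 4 lines with the most MPO. KASUMI1 was at least 4202-fold above NOMO1, taking 3 reads over the group as the limit.

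AZU1, azurocidin, was highest in THP1 at 429 ± 65.0 CPM and next in MOLM13 at 292 ± 4.88 CPM. KASUMI1 (177 ± 24.0 CPM), OCIAML2 (157 ± 10.5 CPM) and MONOMAC6 (140.1 ± 19.6 CPM) were neighbours that did not differ (adjusted p = 0.185 and 0.376). The level was 74.4 ± 5.97 CPM in MV411, 56.2 ± 2.25 CPM in OCIAML3, 45.3 ± 6.19 CPM in NB4, 34.1 ± 5.46 CPM in HL60 and 9.89 ± 1.68 CPM in NOMO1. F36P had 0 reads.

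PRTN3, proteinase 3, lies next to AZU1 and had another order. MOLM13 (1072 ± 99.6 CPM) and KASUMI1 (875 ± 99.3 CPM) were highest and did not differ (adjusted p = 0.0667). HL60 had 341 ± 34.0 CPM, THP1 234 ± 26.0 CPM, NB4 131 ± 40.3 CPM and OCIAML3 79.0 ± 5.49 CPM. The lower lines were MV411 (41.5 ± 0.929 CPM), NOMO1 (23.2 ± 5.18 CPM), MONOMAC6 (14.3 ± 3.48 CPM) and OCIAML2 (5.31 ± 0.469 CPM), and F36P had 0 reads. OCIAML2 and MONOMAC6 thus stood among the higher lines for AZU1 and among the lowest for PRTN3.

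CTSG, cathepsin G, was set apart by MONOMAC6 at 5038 ± 285 CPM and OCIAML3 at 3045 ± 206 CPM. OCIAML2 (541 ± 5.19 CPM), THP1 (402 ± 17.6 CPM) and MOLM13 (331 ± 38.5 CPM) followed. HL60 (188 ± 6.29 CPM), NOMO1 (184 ± 13.8 CPM) and KASUMI1 (182 ± 10.2 CPM) were neighbours that did not differ (adjusted p = 0.482 and 1.00). NB4 had 124 ± 20.1 CPM and MV411 42.8 ± 2.89 CPM, while F36P had 1 read in all. In OCIAML3 CTSG was the most abundant of the 9 genes per kilobase of exon, at 2226 CPM per kb.

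PRSS57, also called neutrophil serine protease 4, was 506 ± 79.6 CPM in KASUMI1 and 463 ± 31.8 CPM in MOLM13, which did not differ (adjusted p = 0.605). MV411 (163 ± 13.8 CPM) and NB4 (145 ± 32.7 CPM) did not differ either (adjusted p = 0.480), nor did OCIAML2 (45.8 ± 5.99 CPM) and HL60 (41.6 ± 7.98 CPM, adjusted p = 0.664). MONOMAC6 had 28.7 ± 9.84 CPM. NOMO1 (2.63 ± 0.369 CPM) and F36P (2.54 ± 0.836 CPM) were alike within their spread (adjusted p = 0.976), and THP1 had 0.504 ± 0.153 CPM. In OCIAML3 only 4 reads fell on PRSS57.

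LYZ, lysozyme, was highest in OCIAML2 at 5084 ± 37.6 CPM, then in MONOMAC6 at 4042 ± 180.4 CPM and MOLM13 at 1878 ± 442 CPM. NOMO1 (472 ± 27.9 CPM), THP1 (420.3 ± 33.5 CPM) and OCIAML3 (408 ± 15.4 CPM) were neighbours that did not differ (adjusted p = 0.350 and 0.683). MV411 had 319.7 ± 53.8 CPM and F36P 165 ± 1.68 CPM. The 3 lines with the most MPO were the 3 with the least LYZ: KASUMI1 58.2 ± 1.64 CPM, NB4 23.9 ± 4.69 CPM and HL60 2.62 ± 0.924 CPM. Untreated monocytic markers, 6 genes in all, summed to 1.06 to 1.75 CPM per library in F36P and HL60, and to 14.1 to 296 CPM in the other lines.

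CST7, cystatin F, was 171 ± 5.58 CPM in NB4, 169 ± 12.6 CPM in MONOMAC6 and 162 ± 15.9 CPM in HL60, neighbours that did not differ (adjusted p = 0.954 and 0.563). MOLM13 had 109 ± 8.56 CPM, OCIAML3 26.0 ± 2.23 CPM, NOMO1 15.7 ± 0.929 CPM and OCIAML2 10.2 ± 1.45 CPM. The level was 6.26 ± 0.776 CPM in MV411, 4.61 ± 0.945 CPM in F36P and 1.10 ± 0.0696 CPM in KASUMI1, and THP1 had 3 reads. KASUMI1, the line with the most MPO, ELANE and PRSS57, was thus second from the bottom for CST7.

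SRGN, serglycin, varied least, and its highest and lowest lines were 108-fold apart. It was 7929.5 ± 329 CPM in MONOMAC6, 4276 ± 143 CPM in MOLM13, 3507 ± 472 CPM in THP1 and 3416 ± 22 CPM in OCIAML2, the last 2 without a difference (adjusted p = 0.563). NB4 had 2728 ± 193 CPM and OCIAML3 2195 ± 182 CPM. MV411 (945 ± 76.0 CPM) and HL60 (826 ± 143 CPM) did not differ (adjusted p = 0.0895), NOMO1 had 670.1 ± 26.0 CPM and F36P 166 ± 6.83 CPM. KASUMI1 had the least, 73.5 ± 2.22 CPM, beside the most MPO.

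Across the 11 lines the patterns of the 9 genes were weakly alike. Pearson's r of log2(CPM + 1) was positive for 26 of 36 pairs of genes with a median of 0.29, given as a description over 11 points that share libraries. The pairs most alike were AZU1 with CTSG (r = 0.71), ELANE with AZU1 (r = 0.69) and AZU1 with PRTN3 (r = 0.65). MPO and LYZ were least alike (r = -0.52). No member was among the 3 genes most like another member among 13673 genes. Those genes were AP1G2 (r = 0.93), DNAJC12 and LRRC37B for MPO, SENCR (0.91), GIPC3 and TRIM14 for ELANE, FUT4 (0.94), ASPH and IRAK3 for AZU1, and C14orf28 (0.87), WDR27 and HAS3 for PRTN3. For CTSG they were TMEM170B (0.94), RCAN3 and SIMC1, for LYZ SESN1 (0.96), SLC66A1 and SPI1, and for PRSS57 VTI1A (0.85), QARS1 and SLC43A1. For CST7 they were ERO1A (0.86), ABT1 and PARP3, and for SRGN PPP4C (0.94), UMAD1 and USP8. SPI1 codes for PU.1, and its r with LYZ was 0.93. Each of these genes was picked as the highest of 13673 values over 11 points, so a high r is no evidence of a link. Without F36P r fell to 0.74 for SIMC1 with CTSG and 0.78 for IRAK3 with AZU1, and rose to 0.93 for WDR27 with PRTN3.

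The second comparison asks how 24 h of etoposide changed the 9 genes within each line. CPM was here normalized within the line. A gene was called when edgeR's quasi-likelihood test gave an FDR below 0.05 over all genes tested in the line and the fold change exceeded 2. Over the 10 lines without OCIAML2, 81 combinations of gene and line had enough reads to be tested, and 9 were called higher and 18 lower. That is 11.1% higher and 22.2% lower, where all genes gave 11.1% higher and 3.96% lower. The combinations that could be tested are not all 90, since 9 had too few reads. The median log2 fold change of the 81 was -0.04. With the FDR alone, 32 were higher and 38 lower.

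The direction of the calls differed between lines, over few members each. Those tested were 5 in F36P, 9 in KASUMI1, MOLM13, MONOMAC6 and MV411, and 8 in HL60, NB4, NOMO1, OCIAML3 and THP1. Among lines with a higher call, the members' higher share was below that of all genes in F36P (20%) and KASUMI1 (11.1%). It was above in HL60 (12.5%), MOLM13 (22.2%), MV411 (22.2%) and OCIAML3 (25%). All 6 calls in NB4 were lower, where 13.2% of all its tested genes were called higher and 4.82% lower (18.0% in all). The 3 calls in MONOMAC6 (8.53% higher and 4.47% lower, 13.0% in all), the 3 in NOMO1 (8.34% and 4.43%, 12.8% in all) and the 1 in THP1 (6.38% and 3.46%, 9.83% in all) were lower too. MOLM13 had 2 calls (8.59% and 3.37%, 12.0% in all), MV411 2 (12.5% and 2.63%, 15.1% in all) and F36P 1 (24.3% and 6.67%, 30.9% in all), and these were higher. KASUMI1 (14.6% and 6.52%, 21.1% in all) and HL60 (5.34% and 1.24%, 6.58% in all) each had 1 higher and 2 lower. OCIAML3 had 2 higher and 1 lower (7.18% and 1.36%, 8.54% in all). The median log2 fold change of the tested members was -1.35 in NB4, -0.73 in NOMO1, -0.62 in MONOMAC6, -0.54 in KASUMI1, -0.47 in HL60 and -0.27 in THP1. It was 0.53 in OCIAML3, 0.65 in MOLM13, 0.70 in MV411 and 0.95 in F36P, while the median of all genes lay between -0.03 and 0.09. For each of the 9 genes the change differed between the 10 lines (edgeR interaction test, adjusted p of 0.00159 for ELANE and below for the others), which held for 74.5% of all genes tested. ELANE lost this without replicate 3 (adjusted p = 0.275).

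MPO fell in HL60, KASUMI1, MONOMAC6, NB4 and NOMO1. In NB4 the untreated libraries had 16360.1, 18181 and 15038 CPM and the etoposide libraries 4253, 4582 and 4039 CPM, which is 3.85-fold lower (log2 fold change -1.94, SE 0.09, edgeR adjusted p = 5.59e-10). In NOMO1 MPO went from 2143, 1888 and 2177 CPM to 454, 272 and 533 CPM (4.93-fold lower, adjusted p = 1.68e-06). In MONOMAC6 it went from 48.9, 56.5 and 53.6 CPM to 13.7, 13.3 and 12.6 CPM (4.01-fold lower, adjusted p = 2.19e-09). These are 3 lines whose basal levels span a wide range, and in each the groups did not overlap. In HL60 the libraries had 7789.6, 7369.7 and 7540.5 CPM untreated and 2976, 4161 and 2477 CPM after etoposide (2.36-fold lower, adjusted p = 4.18e-05). In KASUMI1 they had 25761, 27725 and 29302 CPM and then 12170.3, 13710.1 and 12776 CPM (2.14-fold lower, adjusted p = 8.26e-06). Without replicate 3 the KASUMI1 log2 fold change was -0.998, just short of a fold of 2.

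MPO was not called in the other 5 lines, which went in both directions. MOLM13 was lower by less than 2-fold (80.5, 72.6 and 61.8 CPM against 32.6, 42.2 and 45.6 CPM, log2 fold change -0.81, adjusted p = 0.000478), and reached -1.01 without replicate 3. THP1 was lower too, with a log2 fold change of -0.61 (adjusted p = 0.017). In MV411 (9.78 to 10.4 CPM untreated, 15.2 to 18.1 CPM after etoposide) and OCIAML3 (2.83 to 3.25 CPM, then 4.86 to 5.51 CPM) all etoposide libraries lay above all untreated ones, with log2 fold changes of 0.70 and 0.78 that passed the FDR but not the fold of 2. Both lines started below 11 CPM. In F36P the groups overlapped.

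PRTN3 was called lower in 7 of the 9 lines in which it was tested, more lines than any other member. With the FDR alone, MPO was lower in 7 lines as well. In NB4 the untreated libraries had 160.1, 168 and 89.7 CPM and the etoposide libraries 9.23, 13.0 and 9.92 CPM, which is 13.0-fold lower (log2 fold change -3.69, SE 0.21, adjusted p = 1.91e-09). In NOMO1 it went from 24.4, 20.4 and 31.6 CPM to 3.24, 2.13 and 4.65 CPM (7.63-fold lower, adjusted p = 1.2e-06). These were the lowest fold changes among the 81. In HL60 PRTN3 went from 378, 328 and 405 CPM to 59.6, 145 and 78.1 CPM (3.93-fold lower, adjusted p = 5.49e-05). In MONOMAC6 it went from 11.3, 18.5 and 15.7 CPM to 4.05, 4.72 and 5.13 CPM (3.27-fold lower, adjusted p = 4.86e-06). In KASUMI1 it went from 772, 908 and 958 CPM to 267, 393 and 354 CPM (2.60-fold lower, adjusted p = 3.25e-05). In all 5 lines the etoposide libraries lay below every untreated one.

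The remaining PRTN3 calls were near the threshold. THP1 went from 222, 231 and 269 CPM to 81.4, 143 and 95.9 CPM (2.25-fold lower, adjusted p = 3.36e-05), with a log2 fold change of -0.996 without replicate 3. OCIAML3 went from 75.6, 83.2 and 76.1 CPM to 34.3, 39.9 and 43.3 CPM (2.0-fold lower, adjusted p = 0.000129), with -0.94 without replicate 1 and -0.96 without replicate 2. MOLM13 and MV411 went the other way, with log2 fold changes of 0.37 and 0.40 that passed the FDR alone. In F36P PRTN3 had 0 reads untreated and 6 after etoposide, too few to be tested.

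CTSG fell in MONOMAC6, NB4 and NOMO1. In MONOMAC6, the line with the most CTSG, the untreated libraries had 5026, 5365 and 5570.2 CPM and the etoposide libraries 2002, 2194 and 2152 CPM (2.51-fold lower, adjusted p = 1.48e-09). In NB4 CTSG went from 136, 152 and 109 CPM to 45.3, 52.1 and 40.2 CPM (2.88-fold lower, adjusted p = 7.97e-08). In NOMO1 it went from 204, 185 and 216 CPM to 74.2, 54.9 and 85.6 CPM (2.82-fold lower, adjusted p = 3.64e-06). MPO and PRTN3 fell in the same 3 lines. HL60, KASUMI1 and MV411 were lower by less than 2-fold at an FDR below 0.05 (log2 fold changes -0.43, -0.56 and -0.50). In OCIAML3, the second line by CTSG level, the log2 fold change was 0.19 (adjusted p = 0.0455).

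AZU1 and PRSS57 were each called in NB4 alone. AZU1 went from 46.3, 55.9 and 42.5 CPM to 19.7, 24.8 and 20.4 CPM (2.23-fold lower, adjusted p = 1.5e-06), and PRSS57 from 154, 191 and 119.6 CPM to 59.0, 77.4 and 67.5 CPM (2.28-fold lower, adjusted p = 4.3e-06). Both calls were lost with library size in place of TMM normalization (log2 fold changes -0.95 and -0.97). AZU1 passed the FDR below a fold of 2 in 7 other lines, lower in HL60 and NOMO1 (-0.88 in both), MONOMAC6 (-0.31) and THP1 (-0.52), and higher in MOLM13 (0.78), MV411 (0.84) and OCIAML3 (0.65). HL60 reached -1.05 without replicate 2, and NOMO1 -1.01 without replicate 1. PRSS57 was near a fold of 2 in KASUMI1 (-0.91, and -1.09 without replicate 2) and in F36P (0.99, and 1.31 and 1.04 without replicates 1 and 2), neither of which was called.

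ELANE was tested in 6 lines and called in none, with log2 fold changes between -0.71 in THP1 and 0.48 in MOLM13. The untreated MONOMAC6 libraries had 78.6, 164 and 143 CPM and the etoposide libraries 79.0, 91.9 and 99.4 CPM, so the groups overlapped (log2 fold change -0.51, adjusted p = 0.0444). The 3 untreated OCIAML3 libraries had 58.9, 68.8 and 67.5 CPM and the etoposide libraries 56.4, 71.3 and 92.2 CPM. ELANE is the next gene after PRTN3 on the chromosome, and in KASUMI1, MONOMAC6 and THP1, where PRTN3 fell, ELANE had log2 fold changes of -0.54, -0.51 and -0.71. In OCIAML3, where PRTN3 also fell, ELANE had 0.17 (adjusted p = 0.437).

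ELANE, PRSS57, PRTN3 and AZU1 are rich in G and C, with 66.8%, 67.7%, 66.4% and 63.4% in the longest transcript. Libraries of 1 group differed in the level of such genes relative to genes poor in G and C. In THP1 the 3 etoposide libraries had offsets of -0.29, 0.56 and -0.27 between genes of at least 60% and genes under 45% GC, on the log2 scale around the group mean. ELANE had 54.0, 113 and 82.0 CPM in the same libraries and AZU1 242, 402 and 283 CPM, highest in the second library in both. Between treatments this offset was 0.31 in MOLM13, 0.32 in MV411, 0.17 in MONOMAC6, -0.12 in KASUMI1 and -0.20 in NOMO1, 0.12 in HL60 and NB4, and smaller in size in F36P, OCIAML3 and THP1. Its part in the changes of the 4 genes was not tested.

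LYZ was the member that rose in most lines, namely HL60, KASUMI1, MOLM13, MV411 and OCIAML3. In KASUMI1 the untreated libraries had 56.9, 60.5 and 58.1 CPM and the etoposide libraries 323, 339 and 297 CPM, which is 5.47-fold higher (log2 fold change 2.5, SE 0.08, adjusted p = 1e-07). In OCIAML3 LYZ went from 388, 400.1 and 428 CPM to 1432, 1357 and 1326 CPM (3.38-fold higher, adjusted p = 7.38e-07). In MV411 it went from 375, 371 and 276 CPM to 1176, 1131 and 867 CPM (3.10-fold higher, adjusted p = 6.75e-12). MOLM13 and HL60 stand at opposite ends of the basal range of these 5 lines. In MOLM13 LYZ went from 2231, 1913 and 1351 CPM to 5676, 4994 and 4576 CPM (2.77-fold higher, adjusted p = 2.59e-05). In HL60 it went from 3.62, 1.70 and 3.23 CPM to 6.23, 7.87 and 6.73 CPM (2.44-fold higher, adjusted p = 0.000937), with a log2 fold change of 0.94 without replicate 2.

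LYZ passed the FDR below a fold of 2 in the other 5 lines. It was higher in THP1 (0.85), F36P (0.70) and NB4 (0.39) and lower in MONOMAC6 (-0.32) and NOMO1 (-0.58), where the etoposide libraries lay below the untreated ones. In KASUMI1 and HL60 LYZ and MPO were called in opposite directions.

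LYZ is also a monocyte gene, so the 6 monocytic markers (CD14, CD68, CSF1R, FCGR1A, LILRB4 and CD300E) are given beside it. Over the 10 lines they were called higher in 13 and lower in 2 of 34 tested combinations (38.2% and 5.88%, against 11.1% and 3.96% for all genes). Markers of unrelated cell types, mostly at low levels, were called higher about as often or more, in 8 of 19 combinations for B cells, 6 of 17 for T and NK cells, 8 of 16 for epithelium and 9 of 12 for fibroblasts. A marker at a low level can pass the filter through the group in which it is higher, so these counts are a description. Their summed level per library went from 27.0 to 33.5 CPM untreated to 142 to 149 CPM after etoposide in KASUMI1, and from 90.4 to 102 CPM to 169 to 221 CPM in MOLM13. In MV411 it went from 102 to 106 CPM to 139.9 to 145 CPM. It overlapped between the groups in HL60 (1.57 to 1.75 CPM, then 0.988 to 2.78 CPM) and in OCIAML3 (87.4 to 96.2 CPM, then 92.0 to 123 CPM). In MONOMAC6, where LYZ was lower, it went from 43.2 to 51.5 CPM to 181 to 203 CPM. LILRB4 had 0 reads in KASUMI1 in both groups, and CD300E had 0 reads in MOLM13. The part of these markers in the LYZ changes was not tested.

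SRGN was called in both directions. It fell in NB4, from 3077, 2721 and 2912 CPM to 757, 709.9 and 671 CPM (4.07-fold lower, log2 fold change -2.03, SE 0.09, adjusted p = 4.02e-10). It rose in OCIAML3, from 2082, 2346 and 2100.3 CPM to 4839.5, 4488 and 5002 CPM (2.20-fold higher, adjusted p = 1.48e-05). It also rose in MOLM13, from 4173, 4311 and 4013 CPM to 7704, 8424 and 8666 CPM (log2 fold change 1.01, adjusted p = 1.53e-06), where it was 0.95 without replicate 3. MV411 had a like change that was not called, from 921 to 1064 CPM to 1804 to 2146 CPM (log2 fold change 0.99, adjusted p = 1.03e-11), and it reached 1.01 without replicate 2. F36P (0.95, and 1.03 without replicate 2) and KASUMI1 (0.86) were higher and MONOMAC6 (-0.86) lower at an FDR below 0.05. HL60, NOMO1 and THP1 overlapped between the groups.

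CST7 rose in F36P, from 5.80, 3.89 and 5.69 CPM to 8.98, 10.3 and 13.6 CPM (2.13-fold higher, adjusted p = 0.000637). It rose in MV411 from 6.84, 5.76 and 7.45 CPM to 13.3, 13.6 and 14.6 CPM (2.07-fold higher, adjusted p = 7.22e-08), with a log2 fold change of 0.96 without replicate 2. In NB4, one of the lines with the most CST7, it was 1.98-fold lower (179, 178 and 189 CPM against 91.5, 93.5 and 90.9 CPM), and its log2 fold change of -0.98 became -1.03 without replicate 2. In the other tested lines CST7 passed the FDR below a fold of 2. It was lower in HL60 and MONOMAC6 (log2 fold change -0.50 in both). It was higher in KASUMI1 and MOLM13 (0.77 in both), NOMO1 (0.45) and OCIAML3 (0.41). THP1 had 3 reads untreated and 43 after etoposide and was not tested.

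Over the 10 lines together, with the line as the unit, PRTN3, MPO and LYZ had a mean change. The mean change of log2(CPM + 1) was -1.22 for PRTN3 (SD 1.29 over lines, limma adjusted p = 0.0157) and -0.82 for MPO (SD 1.08, adjusted p = 0.0413), each higher in 3 of 10 lines. It was 0.97 for LYZ (SD 0.97, adjusted p = 0.0123), higher in 8 of 10. For PRTN3 and MPO, F36P was among the 3 higher lines, with 0 PRTN3 reads untreated and 6 after etoposide. MPO in F36P was 1.07 CPM untreated and 1.33 CPM after etoposide, with overlapping groups. Lines with nearly no reads entered with a change near 0, as for ELANE in F36P, HL60, NB4 and NOMO1. Of all genes 22.2% passed higher and 18.6% lower. CTSG had -0.51 (adjusted p = 0.0527), and the other 5 members lay between -0.12 and 0.29 with adjusted p of 0.245 or more. MPO did not pass when 1 of 7 lines was left out, with adjusted p of 0.0765 without HL60, 0.0704 without KASUMI1, 0.0635 without MOLM13, 0.0900 without MONOMAC6, 0.0915 without NB4, 0.0947 without NOMO1 and 0.0549 without THP1, nor without replicate 1 (0.0702). CTSG passed without F36P (0.0316), MOLM13 (0.0430), OCIAML3 (0.0395) or THP1 (0.0486), without replicate 2 (0.0372), and with a minimum of 5 CPM (0.0497). PRTN3 and LYZ passed under every alternative run.

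The share of the library that the 9 genes held also changed, through genes that were called and genes that were not. SRGN, for example, was not called in MV411 or MONOMAC6. Its share went from 0.0966% to 0.210% in MV411 and from 0.802% to 0.478% in MONOMAC6. Before etoposide they took 2.74% ± 0.170 of the reads on genes in KASUMI1, 1.87% ± 0.123 in NB4 and 1.77% ± 0.0179 in MONOMAC6, and 0.0333% ± 0.000790 in F36P (mean ± SD, n = 3). After etoposide the share was 1.55% ± 0.0682 in KASUMI1, 0.567% ± 0.0396 in NB4 and 1.09% ± 0.0147 in MONOMAC6. It was 0.835% ± 0.0626 in MOLM13 before and 1.66% ± 0.0440 after, and 0.579% ± 0.0314 and 0.990% ± 0.0389 in OCIAML3. HL60 went from 0.896% to 0.449%, NOMO1 from 0.351% to 0.163%, MV411 from 0.165% to 0.372% and F36P from 0.0333% to 0.0708%. In all 9 of these lines the groups did not overlap, while they did in THP1. In OCIAML2, with no gene called, they did not overlap either (0.923% to 0.933% untreated, 0.960% to 0.982% in the libraries labelled etoposide). Most of the share was MPO in KASUMI1 and NB4, and SRGN with LYZ in MOLM13.

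**Figure D2:**
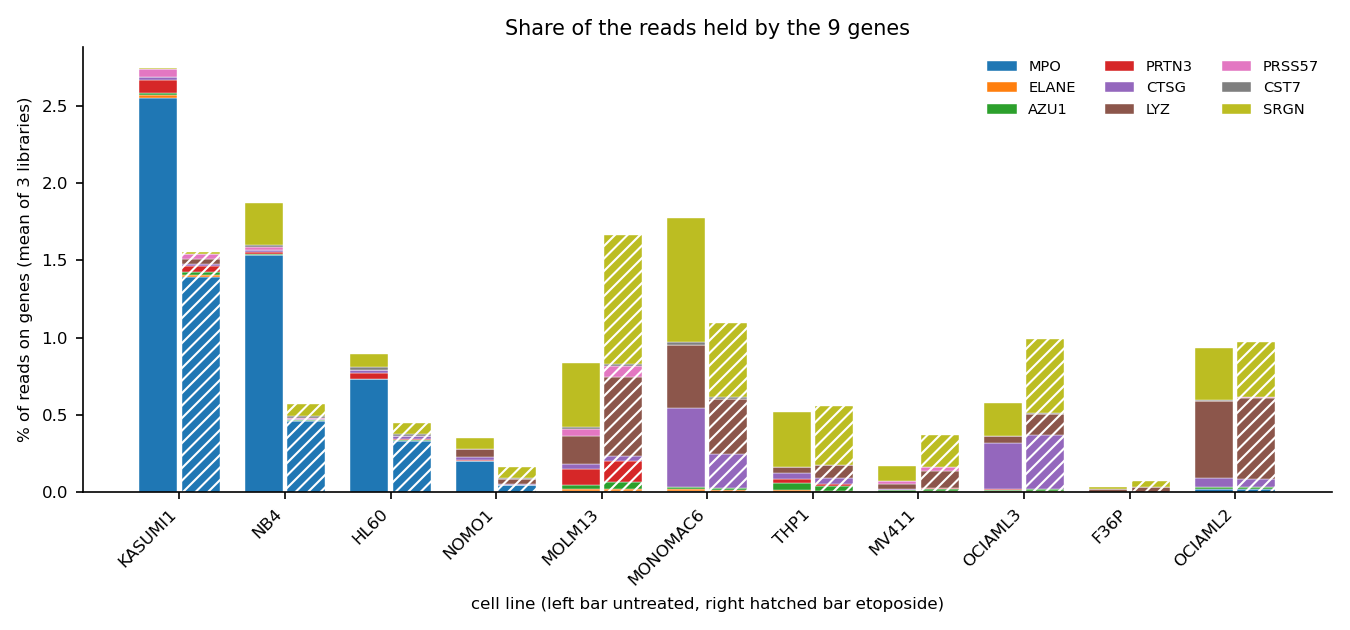
Percent of reads on genes held by each of the 9 genes, stacked, as the mean of 3 libraries, untreated (left bar) and after etoposide (hatched right bar), by cell line. The summed share goes from 1.87% to 0.567% in NB4 and from 0.835% to 1.66% in MOLM13.

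In OCIAML2 none of the 9 genes was called, and neither was any of 13604 genes by edgeR (456 had an unadjusted p below 0.05, and DESeq2 called 0 with 195). With no filter on low counts 1 gene was called. Log2 fold changes of the 9 lay between -0.46 for ELANE, with 36 and 26 reads in the 2 groups, and 0.14 for CST7, and their adjusted p was 0.998. The libraries labelled etoposide had 166, 177 and 184 CPM of MPO against 184, 190.2 and 191 CPM untreated, and 5343, 5193 and 5148 CPM of LYZ against 5065, 5006 and 5001 CPM.

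Around the chromosome 19 cluster the neighbours did not move as a block. CFD, which codes for complement factor D and starts 8.44 kb downstream of the ELANE start, was called higher in 5 lines and lower in none, with log2 fold changes of 0.15 to 1.75 in 9 lines. In MOLM13 CFD went from 20.5, 26.6 and 21.6 CPM to 58.7, 77.3 and 83.7 CPM (log2 fold change 1.70, adjusted p = 7.7e-06). In KASUMI1, MONOMAC6 and OCIAML3 CFD rose while PRTN3 fell. PLPPR3, the neighbour of AZU1 on its other side and on the opposite strand, was called lower in MONOMAC6, NB4, NOMO1 and THP1, 4 of the lines in which PRTN3 fell. In NB4 it went from 69.2, 68.9 and 45.6 CPM to 12.8, 17.4 and 18.1 CPM (log2 fold change -1.92, adjusted p = 1.33e-07). PALM, between PRSS57 and AZU1, was called higher in F36P, HL60, MOLM13, MV411 and NB4. POLRMT was called lower in 2 lines, HCN2, FSTL3, KISS1R and MISP were called higher in 1 line each, and RNF126, PTBP1, MED16, R3HDM4 and ARID3A were called in none. FGF22, and CMA1 beside CTSG, had too few reads to be tested.

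**Figure D3:**
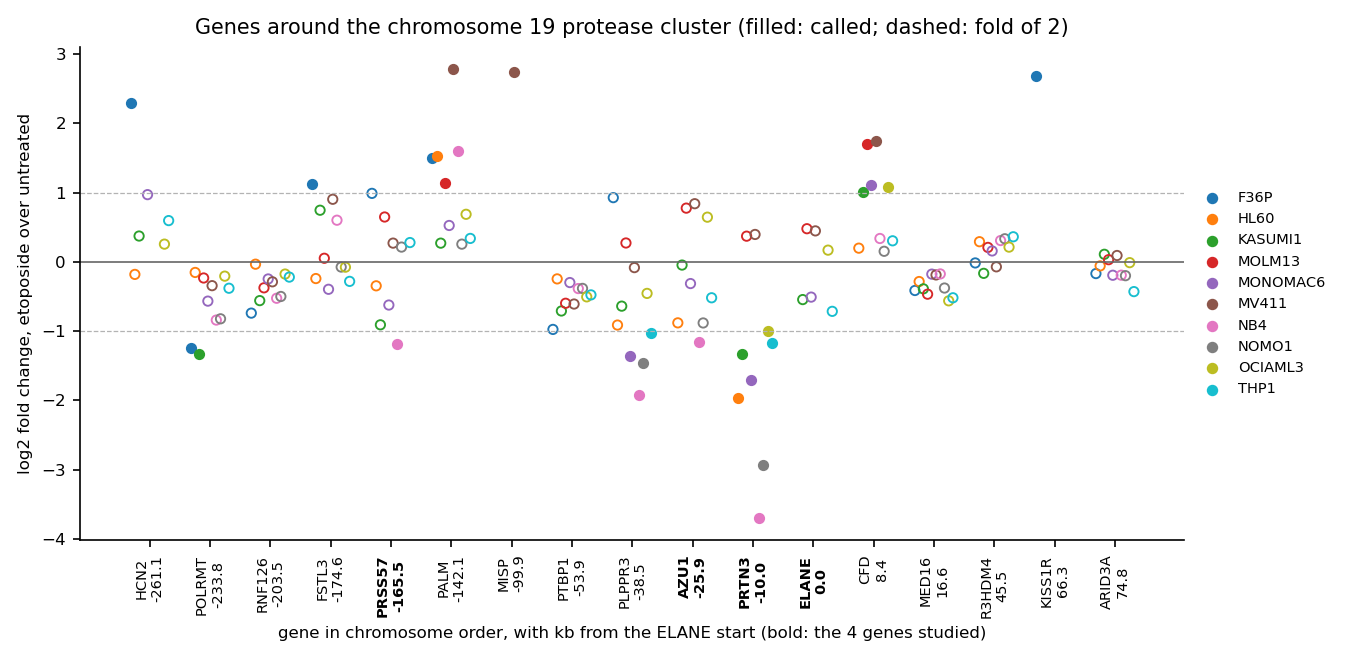
Log2 fold change after etoposide (vertical axis) of the protein-coding genes around the cluster in chromosome order, with the distance in kb from the ELANE start to the left end of each gene under its name, and 1 point per cell line, filled where called. PRTN3 points reach -3.69 in NB4, while CFD points, 8.4 kb beyond ELANE, lie between 0.15 and 1.75.

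Beside CTSG on chromosome 14, GZMH and GZMB had enough reads in MONOMAC6 alone. GZMH went from 5.02, 4.87 and 5.79 CPM to 1.87, 1.34 and 1.30 CPM (log2 fold change -1.79, adjusted p = 2.48e-06). GZMB, granzyme B, went from 1.23, 0.995 and 0.835 CPM to 6.41, 6.15 and 6.08 CPM (log2 fold change 2.61, adjusted p = 7.51e-08), opposite to GZMH and CTSG.

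Other azurophil granule proteins were a list of 19 genes, of which 17 could be tested in at least 1 line. Over 145 tested combinations 29 were called higher (20%) and 9 lower (6.21%), against 11.1% and 3.96% for all genes. A gene at a low level can pass the filter through the group in which it is higher, so these counts are a description. The bactericidal protein BPI rose in 4 of the 6 lines in which it was tested. The granule membrane gene NKG7 rose in 7 lines, the lysosomal hydrolases FUCA1 and ARSA in 6 and 3, and CFD in 5. The ribonuclease RNASE3 fell in HL60, NB4 and NOMO1, and in NB4 it went from 13.3, 9.48 and 13.0 CPM to 3.29, 3.05 and 2.5 CPM (log2 fold change -2.01, adjusted p = 1.77e-07). The list's median log2 fold change was lowest in NB4 at -0.41 and highest in MOLM13 at 0.94. By level its highest gene was RNASE2 in THP1, at 772 CPM untreated.

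Genes that activate, inhibit or pack the proteases were 15, with 16 of 128 combinations called higher (12.5%) and 7 lower (5.47%), near the 11.1% and 3.96% of all genes, so the genes below are described one by one. CTSC, the activating protease, was called in none of the 10 lines, with log2 fold changes between -0.85 and 0.10. The elastase inhibitor SERPINA1 rose in 7 of the 8 lines in which it was tested, for example in MOLM13 from 0.149 to 0.245 CPM to 1.97 to 2.04 CPM. SERPINB9, which inhibits granzyme B, rose in 3 of 4. A gene at so low an untreated level can pass the filter through the etoposide group alone, so these counts are a description. CALR, an endoplasmic reticulum chaperone that takes part in MPO folding, fell in KASUMI1, MONOMAC6 and NB4, each a line in which MPO fell. In HL60 and NOMO1, where MPO fell too, CALR was not called. In NB4 CALR went from 5305, 5735 and 4865 CPM to 1404, 1447 and 1363 CPM (log2 fold change -1.91, adjusted p = 4.23e-10), and its untreated level there, 4979 CPM, was the highest of the list. LYST, a regulator of granule size, fell in HL60, NB4 and NOMO1.

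Genes of the later specific and gelatinase granules were 15, and most were at low levels untreated, so that many could be tested only through the group in which they were higher. Of 50 tested combinations 34 were called higher (68%) and 1 lower (2%), against 11.1% and 3.96% for all genes, which is therefore a description. The antimicrobial peptide gene CAMP was called higher in 6 lines, the protease gene MMP9 in 6, HP in 7 and CHI3L1 in 5. In KASUMI1 HP, haptoglobin, went from 0.516, 0.320 and 0.280 CPM to 7.23, 8.98 and 7.49 CPM. In MONOMAC6 MMP9 went from 0.871, 1.89 and 1.82 CPM to 33.7, 37.2 and 42.2 CPM (log2 fold change 4.62, adjusted p = 1.84e-09). By level CHI3L1 in THP1 was highest, at 1484 CPM untreated.

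Transcription factors with known roles in granule genes were 12, with 15 of 116 combinations called higher (12.9%) and 9 lower (7.76%), where all genes gave 11.1% and 3.96%. The higher share is near that of all genes. SPI1 was called in no line, with log2 fold changes between -0.30 and 0.43, and neither were GFI1 and CBFB. CEBPB rose in MONOMAC6, NB4, NOMO1, OCIAML3 and THP1, with log2 fold changes of 0.82 to 1.75 over the 10 lines. CEBPE, a factor of late granulocyte maturation, rose in F36P, KASUMI1, MV411 and THP1 and fell in NB4, from 82.5, 102 and 78.8 CPM to 28.5, 36.5 and 35.7 CPM (log2 fold change -1.38, adjusted p = 1.84e-07). MYB, a factor of immature cells, fell in F36P, MONOMAC6 and NB4 and was negative in all 10 lines. In NB4 MYB went from 570.4, 545 and 575 CPM to 169, 148 and 152 CPM (log2 fold change -1.85, adjusted p = 4.23e-10). KLF4, a monocyte factor, rose in 4 lines. IRF8 had the highest level of the list, at 1365 CPM in untreated OCIAML3.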

How the data were processed

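The authors mapped the reads with STAR 2.5.3a (quality control with FastQC 0.11.5) to GRCh38.p7 with gencode release 25 and deposited raw counts of reads per gene, 1 column per library, without normalization. Which strand column of STAR was kept is not given in the sources used here, so overlapping genes on opposite strands may be uncertain. The authors used edgeR 3.20.1, whose results were not used. Of 58037 identifiers, 45 chromosome Y copies with 0 reads were left out. Names came from gencode release 44 by identifier (56948 matched), and promoters from RefSeq tables.

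From the deposited counts each line was fitted in R 4.3.3 with edgeR 4.0.16: filterByExpr (minimum count 10, minimum total 15), TMM normalization, the quasi-likelihood test and Benjamini-Hochberg adjustment, called at an FDR below 0.05 and a fold above 2. The interaction was fitted on 60 libraries. The mean over lines used limma 3.58.1 on log2(CPM + 1) changes, keeping genes that averaged 1 CPM or more. Basal levels used 1 fit of the 33 untreated libraries. DESeq2 1.42.0 was an alternative. Other steps used Python 3.11.15.

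Replicate numbers came from the sample titles. Same-numbered libraries deviated together, with a correlation above 0.1 in each of the 3 pairs, in MOLM13, MONOMAC6 (lowest 0.14), NB4 and OCIAML2, and not in the other lines. All 66 pairs of libraries of 1 group differed beyond counting noise (chi-square of at least 2.05 per degree of freedom).

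The members and the gene lists were chosen with earlier results of these data known. Genes named are the 9 members in every line, the 3 genes most like each by basal pattern, the protein-coding neighbours within 100 kb, CDKN1A, and of each list the genes called in at least 3 lines and the gene of the highest level. A few more (CTSC, SPI1, GFI1, CBFB, GZMB and GZMH among them) were named after their values were seen or as neighbours. On simulated counts the steps recovered the changed genes. Those counts had 1 fixed dispersion and, for the mean over lines, the same change in every line. The lines here differ in their changes, so the simulation checks the code and not the error rates in these data. Alternatives were RLE normalization or library size alone, DESeq2, no filter or a minimum of 5 CPM, a replicate block, each replicate left out, no fold minimum, 1 fit of 60 libraries, a pseudocount of 0.25, OCIAML2 added and each line left out.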

Additional observations from a re-analysis of the deposited data

Results flagged for a closer look

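The change after etoposide differed between the 10 cell lines for all 9 genes by the edgeR interaction test over 60 libraries. The adjusted p was 2.11e-25 for SRGN, 7.28e-20 for LYZ, 4.23e-18 for MPO, 1.02e-17 for CST7, 2.29e-16 for PRTN3, 2.81e-15 for CTSG, 1.97e-12 for AZU1, 1.88e-07 for PRSS57 and 0.00159 for ELANE. Of all 19974 genes tested, 74.5% passed the same test, so a difference between lines is common in these data. SRGN spans log2 fold changes from -2.03 in NB4 to 1.13 in OCIAML3, MPO from -2.30 in NOMO1 to 0.78 in OCIAML3, and PRTN3 from -3.69 in NB4 to 0.40 in MV411. The concentration of etoposide differed between the lines, so line and concentration cannot be told apart. Groups of 3 libraries are too small for a search for single libraries that stand apart.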

How the results depend on the processing

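Of the 27 calls, 19 held under every alternative, and 27 of 27 under RLE normalization and DESeq2. The 17 values that lost a call kept an FDR below 0.05 with folds of 1.83 to 2.0. With no fold minimum 70 combinations passed, 4 in F36P, 6 in HL60, 8 in KASUMI1, 8 in MOLM13, 9 in MONOMAC6, 9 in MV411, 8 in NB4, 6 in NOMO1, 7 in OCIAML3 and 5 in THP1. F36P, with 1 call, had 3 with library size alone, 2 with no filter, 2 with a minimum of 5 CPM, 4 in 1 fit of 60 libraries and 1 to 3 without a replicate. MOLM13, with 2, had 1 with library size alone and 1 with no filter. THP1, with 1, had 2 with no filter, 2 in 1 fit of 60 libraries and 0 to 2 without a replicate. The median r among basal patterns, 0.29, was 0.21 without F36P and 0.27 with a pseudocount of 0.25. The cause was not tested.

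With a replicate block 27 combinations were called, the same 27 as without it, and the block changed no call of a member. Over all genes the interaction passed for 14034 of 19974 with the block against 14875 without it.

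No called change turned direction. Among small changes AZU1 in KASUMI1 turned to 0.13 with library size alone, 0.046 with a minimum of 5 CPM and 0.0020 in 1 fit of 60 libraries (-0.23 to 0.079 without a replicate). SRGN in NOMO1 turned to 0.043 with library size alone (-0.083 to 0.044 without a replicate). CTSG in THP1 turned to 0.00061 with RLE, 0.040 with library size alone, 0.00062 with DESeq2 and 0.025 in 1 fit (-0.081 to 0.12 without a replicate). Leaving out a replicate moved MPO in F36P between -0.18 and 0.85, CTSG in MOLM13 between -0.028 and 0.22, ELANE in OCIAML3 between -0.050 and 0.26 and SRGN in THP1 between -0.13 and 0.27. In OCIAML2 it moved ELANE between -0.66 and 0.089, PRTN3 between -0.20 and 0.098 and PRSS57 between -0.16 and 0.034. The mean over lines of ELANE turned to 0.010 without THP1, and that of PRSS57 to 0.0097 with a pseudocount of 0.25, 0.030 without KASUMI1 and 0.056 without NB4. The mean of MPO also missed the threshold with RLE (adjusted p = 0.0508) and a pseudocount of 0.25 (0.0588). Of 90 neighbouring basal pairs 8 changed order, 0 of which had differed.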

Other observations

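Across the 10 lines the changes of some members went together, given as a description over 10 points that share libraries and concentrations. Pearson's r of the log2 changes was 0.89 for CST7 with SRGN, 0.88 for AZU1 with PRTN3 and 0.82 for MPO with CTSG. It was 0.01 for LYZ with PRSS57, and 0.46 for PRTN3 with LYZ.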
